A study of Mus musculus with 11 samples.

Results

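The cytosolic RNA and DNA sensors described here were 9 genes of 55487 in the expression tables of FACS-sorted mouse beta cells: Ddx58, Ifih1, Dhx58, Zbp1, Eif2ak2, Adar, Mavs, Tmem173 and Mb21d1. They were chosen by name, as the rows whose Ensembl identifier maps to these symbols, and all 9 were found. Islets of C57BL/6 mice (C57BL/6JRj males of 12 weeks per the methods) were kept in culture, treated ones with IFNγ at 50 pg/mL during 20 h and the controls without the cytokine. Beta cells were then sorted as EpCam-positive, CD24-low, CD71-positive cells and sequenced in bulk, as 4 PD-L1high libraries and 3 PD-L1low libraries of treated islets, split by surface PD-L1, and 4 control libraries of untreated islets. Replicates are numbered 1 to 4, and there is no PD-L1low library 1. The methods describe each n as a separate biological sample. In both comparisons with control, the cytokine and the PD-L1 gate cannot be told apart. In these bulk samples, a change in the number of cells that carry a transcript and a change in RNA per cell cannot be told apart.

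Cells detect viral or misplaced nucleic acids in the cytosol with a small set of proteins. RIG-I (Ddx58) and MDA5 (Ifih1) are helicases that bind double-stranded RNA and signal through the mitochondrial adaptor MAVS, and LGP2 (Dhx58) is their relative without signalling domains, which modulates both. PKR (Eif2ak2) is a kinase that binds double-stranded RNA and phosphorylates the translation factor eIF2α, ZBP1 binds left-handed Z-form nucleic acids and can start necroptosis through RIPK3 and MLKL, and ADAR edits adenosine to inosine in double-stranded RNA, which keeps the cell's own RNA from being sensed. For DNA, cGAS (Mb21d1) makes a cyclic dinucleotide that activates STING (Tmem173). MDA5 is also known in the beta cell field because IFIH1 variants are associated with type 1 diabetes. The DNA motifs known to mediate the effect of interferons on genes are the interferon-stimulated response element (ISRE) and the gamma-activated site (GAS).

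The 9 genes lie on 7 autosomes of GRCm38. Ddx58 spans chr4:40203773-40239828, Ifih1 chr2:62595798-62646255, Dhx58 chr11:100694884-100704271, Zbp1 chr2:173206612-173218923 and Eif2ak2 chr17:78852564-78882573, all on the minus strand. Adar spans chr3:89715022-89753446 and Mavs chr2:131234063-131248025 on the plus strand. Mb21d1, named Cgas in the annotation, spans chr9:78430526-78443237 on the minus strand, and the position of Tmem173 is given with its values. All 9 are protein-coding genes. Chrnb2, a nicotinic receptor subunit gene, overlaps Adar on the opposite strand and had 447 to 831 counts in PD-L1high, 654 to 796 in PD-L1low and 608 to 991 in control libraries. The other opposite-strand genes with a row in the files (those at Dhx58, Eif2ak2 and Mb21d1) had at most 1 count in any library.

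RefSeq promoter windows (GRCm38.p6, 250 bases before to 50 after a transcript start) were matched for 6 of the 9 genes: Ddx58, Ifih1, Eif2ak2, Adar, Mavs and Mb21d1. Because IFNγ was the stimulus, the windows were searched on both strands for a core of the ISRE, GAAA followed after any 2 bases by GAAA, and for the GAS, TTCNNNGAA. The ISRE core was in the windows of Ddx58, Ifih1 and Eif2ak2. It was in 3.44% of all 32851 windows and in the windows of 3.99% of 27025 genes. The GAS was in the window of Eif2ak2 and in 1 of the 3 windows of Adar, against 8.3% of all windows and 9.55% of genes. Neither motif was in the windows of Mavs and Mb21d1. A match is a description of the letters and does not show that a factor was bound. The sites are given 5′ to 3′ on the strand of the gene, with the motif in capitals, to show where these letters lie in the genes described below. Positions are counted from the RefSeq start base as +1, and the base before it as -1.
Ddx58 ISRE core, motif at +3 to +12, chr4:40239804-40239833, minus strand: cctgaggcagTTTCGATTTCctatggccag
Ifih1 ISRE core, motif at +33 to +42, chr2:62646206-62646235, minus strand: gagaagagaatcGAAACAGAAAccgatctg
Eif2ak2 ISRE core, motif at +19 to +28, chr17:78882535-78882564, minus strand: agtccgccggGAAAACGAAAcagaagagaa
Eif2ak2 GAS, motif at -178 to -170, chr17:78882731-78882760, minus strand: ctgcagagctTTCCCAGAAtggaagccagg
Adar GAS, motif at +23 to +31, chr3:89730730-89730759, plus strand: gggaagccttTTCAAGGAAacgaaagtgaa
The Ddx58 site carries the core on the opposite strand, so it reads TTTC, 2 bases, TTTC in the direction of the gene. Ddx58 and Eif2ak2 are also shown from -250 to +30, as a gene with the ISRE core alone and a gene with both motifs.
Ddx58 promoter, chr4:40239796-40240075, minus strand: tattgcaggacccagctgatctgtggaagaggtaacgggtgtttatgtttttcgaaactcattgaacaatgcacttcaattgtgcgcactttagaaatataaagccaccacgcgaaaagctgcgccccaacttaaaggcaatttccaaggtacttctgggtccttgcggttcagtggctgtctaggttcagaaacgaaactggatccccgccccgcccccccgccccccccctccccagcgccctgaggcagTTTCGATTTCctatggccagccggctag
Eif2ak2 promoter, chr17:78882543-78882822, minus strand: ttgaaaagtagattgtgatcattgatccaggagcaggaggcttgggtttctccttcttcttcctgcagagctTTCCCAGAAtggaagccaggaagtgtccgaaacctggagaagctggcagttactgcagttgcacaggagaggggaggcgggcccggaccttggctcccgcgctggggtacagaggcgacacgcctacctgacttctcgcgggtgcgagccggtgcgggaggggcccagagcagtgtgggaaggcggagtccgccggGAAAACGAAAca

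The libraries held 10422018 to 15810769 expected counts each. Of 55487 genes, 16252 passed a filter on low counts (a minimum count of 10) and entered the quasi-likelihood test of edgeR. Levels are CPM, counts scaled to a common TMM-normalized library size, fold changes are on the log2 scale of that fit, and a gene was called higher or lower at a Benjamini-Hochberg adjusted p under 0.05 over all tested genes. As a check of the labels, the IFNγ targets Irf1, Gbp2, Igtp and Tap1 were all higher in PD-L1high than in control cells. Igtp and Tap1 were also higher in PD-L1low than in control cells. Cd274, which encodes the sorted protein PD-L1, was higher than in control cells in both PD-L1high and PD-L1low cells. Because PD-L1 set the gate, Cd274 is no check of the PD-L1high label and no finding between the gated groups. The summed CPM of 9 beta cell markers was 63300 to 91900 in PD-L1high, 73400 to 79100 in PD-L1low and 62000 to 95600 in control libraries. The sum of 12 macrophage and leukocyte markers, cells that are rich in these sensors, was 4.69 to 6.44 CPM in PD-L1high, 3.23 to 5.69 CPM in PD-L1low and 3.99 to 5.74 CPM in control libraries, with Adgre1, Lyz2, Itgam, Tyrobp and Cd3e at 0 in every library. Others of that list were detected. Cd68 had 30 to 69 counts in PD-L1high, 19 to 51 in PD-L1low and 32 to 44 in control libraries. Fcer1g, Cd79a and Csf1r reached 21, 16 and 13 counts in a library. Markers of other endocrine cells moved with the PD-L1 gate. The sum of 5 alpha cell markers, mostly from Gcg, was 463 to 1330 CPM in PD-L1high, 181 to 243 CPM in PD-L1low and 228 to 1180 CPM in control libraries. Of the 4 tested alpha cell markers, 1 was called higher in PD-L1high than in PD-L1low cells, against 0.640% of all tested genes. The sum of the pancreatic polypeptide (PP) cell genes Ppy and Pyy was 233 to 562 CPM in PD-L1high, 26.8 to 33.5 CPM in PD-L1low and 150 to 382 CPM in control libraries. The sum of 3 delta cell markers was 6.92 to 33.9 CPM in PD-L1high, 2.04 to 7.2 CPM in PD-L1low and 3.62 to 24.7 CPM in control libraries. Outside the endocrine cells, the sum of 7 acinar and duct markers, mostly from Spp1, was 105 to 467 CPM in PD-L1high, 208 to 228 CPM in PD-L1low and 126 to 208 CPM in control libraries. The part of these cells in the sensor values was not tested.

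Of the 9 sensor genes, 7 passed the filter, and Tmem173 and Mb21d1 did not. All of the tested genes except Mavs, 6 of 7, were higher in PD-L1high than in control beta cells (85.7% of those tested, against 0.941% of all tested genes called higher). In the same 6 genes, every PD-L1high library lay above every control library, a pattern found in 2.68% of tested genes. Between PD-L1high and PD-L1low cells, 4 of the 7 were higher in PD-L1high (57.1%, against 0.640% of all tested genes): Ddx58, Ifih1, Dhx58 and Eif2ak2. Every PD-L1high library lay above every PD-L1low library for 6 of the 7 genes, against 4.41% of tested genes. These separations are in CPM. In the deposited TPM they held except for Ddx58 against control, where PD-L1high library 4 had 21.6 TPM and control library 1 had 21.8 TPM, and for Adar against PD-L1low, where PD-L1high library 4 had 20.5 TPM and PD-L1low library 2 had 23.6 TPM. None of the 7 was called higher in PD-L1low than in control cells, where 0.0615% of all tested genes were, and none was called lower in any comparison. The median log2 fold change of the 7 genes was 1.16 for PD-L1high versus control, 0.75 for PD-L1high versus PD-L1low and 0.32 for PD-L1low versus control, beside medians over all tested genes of -0.02, -0.00 and 0.00. The comparisons share samples: PD-L1high versus control and PD-L1low versus control use the same controls.

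**Figure D1:**
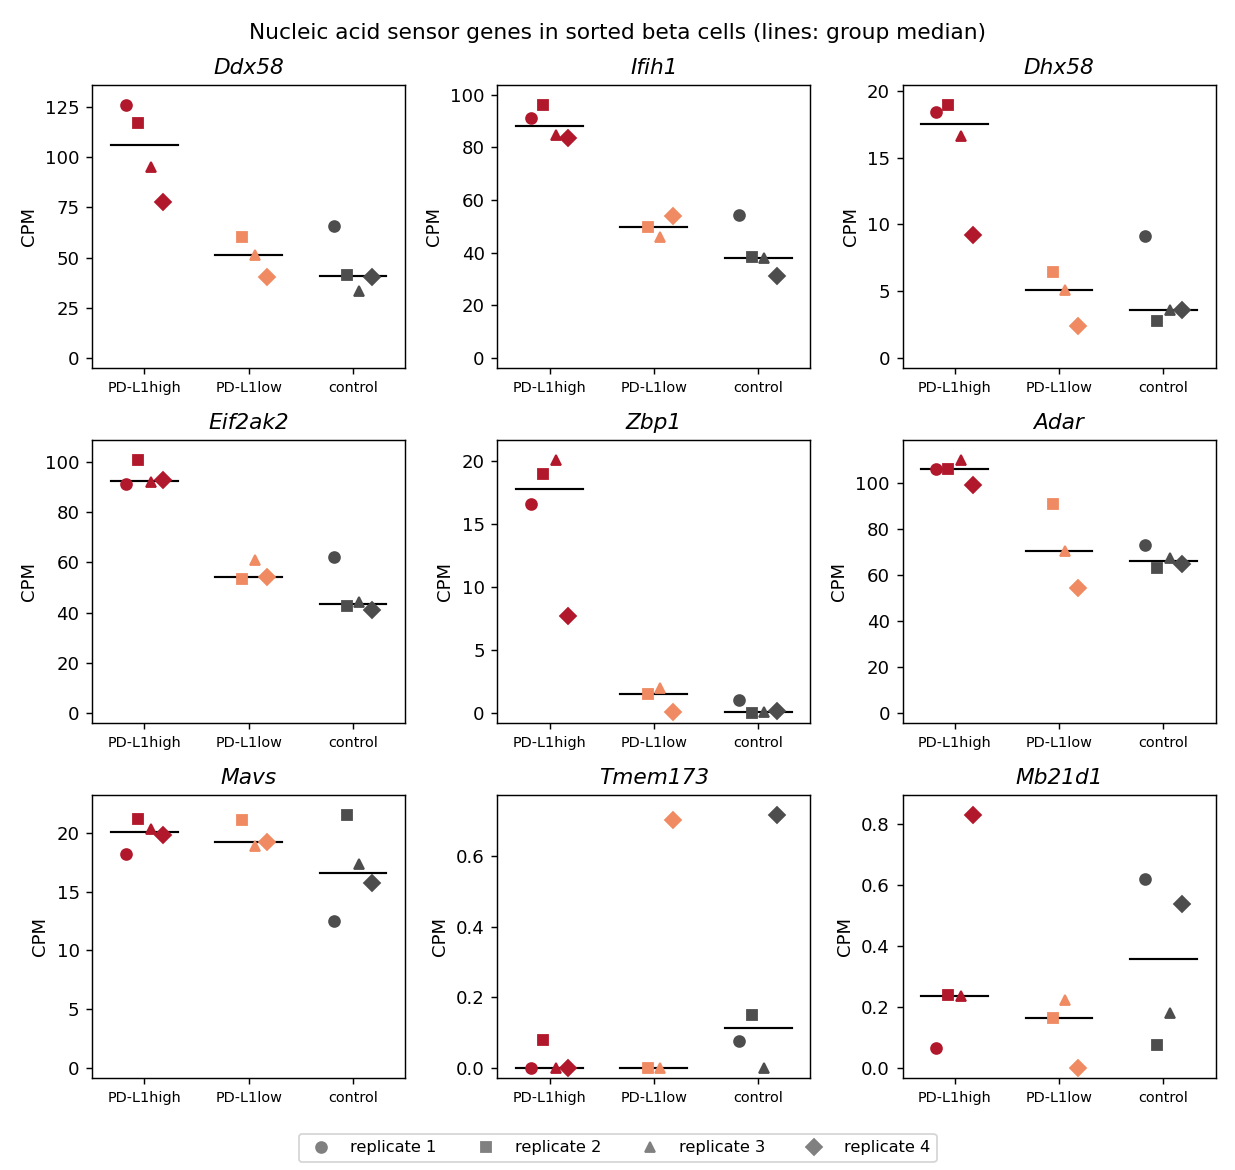
CPM of the 9 sensor genes (1 panel each, linear axes) in PD-L1high, PD-L1low and control beta cell libraries. Points are libraries, with the replicate number as the symbol, and lines are group medians. In 6 panels every PD-L1high library lies above every other library, while Mavs overlaps between all groups and Tmem173 and Mb21d1 stay under 1 CPM.

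The RIG-I-like receptors were described first. Ddx58, which encodes RIG-I, had 126, 117, 95.4 and 77.7 CPM in PD-L1high libraries 1 to 4, against 60.5, 51.5 and 40.4 CPM in PD-L1low libraries 2 to 4 and 65.9, 41.2, 33.6 and 40.2 CPM in control libraries 1 to 4. In CPM, the lowest PD-L1high library was above the highest of the other groups, while PD-L1low and control libraries overlapped. Ddx58 averaged 104 ± 21.7 CPM in PD-L1high cells (SD, n = 4) and 45.2 ± 14.2 CPM in control cells (SD, n = 4). It was 2.33-fold higher in PD-L1high cells (log2 fold change 1.22, SE 0.13, edgeR adjusted p = 4.89e-05). Against PD-L1low cells, at 50.8 ± 10.1 CPM (SD, n = 3), it was 1.84-fold higher (log2 fold change 0.88, SE 0.14, edgeR adjusted p = 0.00540). That second call was lost without PD-L1high library 2 (edgeR adjusted p = 0.0750), PD-L1high library 3 (edgeR adjusted p = 0.0617) or PD-L1low library 4 (edgeR adjusted p = 0.0630). It was also lost with no replicate term in the fit (edgeR adjusted p = 0.0703). Within the replicate numbers that have both groups, the log2 ratio of PD-L1high to PD-L1low was 0.89 to 0.95. The direction of these ratios follows from the separation of the libraries in CPM.

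Ifih1, the gene of MDA5, had 91.3, 96.0, 84.8 and 83.6 CPM in PD-L1high libraries 1 to 4, against 49.7, 46.1 and 53.9 CPM in PD-L1low libraries 2 to 4 and 54.5, 38.2, 38.0 and 31.2 CPM in control libraries 1 to 4. The PD-L1high libraries were close together and well above the rest, and the highest control library was above all PD-L1low libraries. It was 2.23-fold higher in PD-L1high than in control cells (log2 fold change 1.16, SE 0.13, edgeR adjusted p = 0.000100). It was 1.68-fold higher in PD-L1high than in PD-L1low cells (log2 fold change 0.75, SE 0.14, edgeR adjusted p = 0.0210). The PD-L1high versus PD-L1low call for Ifih1 was lost without PD-L1high library 2 (edgeR adjusted p = 0.199), 3 (0.143) or 4 (0.0834), and without PD-L1low library 2 (0.153) or 3 (0.182).

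Dhx58, which encodes LGP2, was the least abundant of these 3 receptors per transcript length. It had 18.4, 18.9, 16.6 and 9.24 CPM in PD-L1high libraries 1 to 4, against 6.46, 5.10 and 2.39 CPM in PD-L1low libraries 2 to 4 and 9.15, 2.77, 3.62 and 3.58 CPM in control libraries 1 to 4. PD-L1high library 4 was the lowest of its group and was above control library 1 by less than 0.1 CPM. Dhx58 was 3.46-fold higher in PD-L1high than in control cells (log2 fold change 1.79, SE 0.30, edgeR adjusted p = 0.00456), and the call was lost without control library 3 (edgeR adjusted p = 0.0544). It was 2.99-fold higher in PD-L1high than in PD-L1low cells (log2 fold change 1.58, SE 0.33, edgeR adjusted p = 0.0383). The call against PD-L1low was lost without PD-L1high library 2 (edgeR adjusted p = 0.335), 3 (0.257) or 4 (0.0722), without PD-L1low library 2 (0.0650), 3 (0.176) or 4 (0.271), and without control library 3 (0.0551) or 4 (0.0589), which share the estimate of the spread.

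Eif2ak2, the gene of the kinase PKR, had 91.2, 100.8, 92.2 and 93.1 CPM in PD-L1high libraries 1 to 4, against 53.6, 60.8 and 54.1 CPM in PD-L1low libraries 2 to 4 and 62.3, 42.6, 44.3 and 41.1 CPM in control libraries 1 to 4. The 4 PD-L1high libraries spanned less than 10 CPM, and control library 1 lay above the PD-L1low libraries. Eif2ak2 averaged 94.3 ± 4.37 CPM in PD-L1high cells (SD, n = 4) and 47.6 ± 9.90 CPM in control cells (SD, n = 4), a fitted 2.01-fold difference (log2 fold change 1.01, SE 0.12, edgeR adjusted p = 0.000262). Against PD-L1low cells, at 56.1 ± 4.03 CPM (SD, n = 3), it was 1.62-fold higher in PD-L1high cells (log2 fold change 0.69, SE 0.14, edgeR adjusted p = 0.0285). The call against PD-L1low was lost without PD-L1high library 2 (edgeR adjusted p = 0.245), 3 (0.147) or 4 (0.119), without PD-L1low library 2 (0.189), 3 (0.108) or 4 (0.148), and without control library 4 (0.0517).

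Zbp1 had the largest fitted change of the sensors in all 3 comparisons. Its counts were 257, 238, 255 and 74 in PD-L1high libraries 1 to 4, against 18, 27 and 1 in PD-L1low libraries 2 to 4 and 13, 0, 1 and 2 in control libraries 1 to 4. On the CPM scale this was 16.6, 18.9, 20.1 and 7.69 in PD-L1high, 1.49, 2.00 and 0.070 in PD-L1low, and 1.01, 0, 0.060 and 0.18 in control libraries. The transcript was thus present in every PD-L1high library and near the limit of detection in control libraries 2 to 4. The log2 fold change of Zbp1 for PD-L1high versus control was 5.94 (SE 0.80, 95% interval 4.14 to 7.74, edgeR adjusted p = 0.00486), and its size rests on the few control counts. The value was 7.65 without control library 1, 7.63 without PD-L1high library 1, and 5.31 to 6.11 without any other single library, while on log2(TPM + 1) it was 3.71. For PD-L1high versus PD-L1low it was 3.68 (95% interval 2.00 to 5.36), which did not pass the threshold (edgeR adjusted p = 0.0804), although every PD-L1high library was above every PD-L1low library. The same difference passed without control library 1 (edgeR adjusted p = 0.000692), 2 (0.0120) or 3 (0.0448) or PD-L1high library 1 (0.00260), and under limma-voom (adjusted p = 0.00317). It also passed without replicate 1 in all groups (edgeR adjusted p = 0.00117), with only the 2 groups compared (0.00233) and with no filter on low counts (5.14e-16). Limma on log2(TPM + 1) passed it too (adjusted p = 0.000957). The difference did not pass without any of the other single libraries (edgeR adjusted p = 0.125 to 0.503), nor under DESeq2 with the same terms (adjusted p = 0.0995) or on group alone (adjusted p = 0.120). In edgeR it did not pass with no replicate block (adjusted p = 0.199), other normalizations (0.0877 and 0.0985) or a stricter filter on low counts (0.0734). It passed under 9 of the 22 alternatives, which are not separate tests. Leaving out control library 1, PD-L1high library 1 or replicate 1, or using only the 2 groups, each takes replicate 1 out of this comparison. Their log2 fold changes were 3.90 to 3.92. With no filter on low counts it was 3.66, so the small adjusted p there did not come from a larger change. For PD-L1low versus control the log2 fold change of Zbp1 was 2.25 (95% interval 0.07 to 4.43, edgeR adjusted p = 1.00), and it passed only with no filter on low counts (edgeR adjusted p = 0.00826). That value was 3.75 without control library 1, 3.70 without PD-L1high library 1, 1.52 without control library 3 and 0.50 on log2(TPM + 1).

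Adar, the RNA-editing enzyme of this group, had 105.9, 106.1, 109.8 and 99.0 CPM in PD-L1high libraries 1 to 4, against 90.6, 70.6 and 54.5 CPM in PD-L1low libraries 2 to 4 and 72.8, 63.1, 67.1 and 64.9 CPM in control libraries 1 to 4. The PD-L1high and control libraries were each tightly grouped, and the PD-L1low libraries were spread from below the lowest control to near the PD-L1high range. Adar was 1.57-fold higher in PD-L1high than in control cells, the smallest change among the called sensors (log2 fold change 0.65, SE 0.12, edgeR adjusted p = 0.0139). The call was lost without control library 3 (edgeR adjusted p = 0.0932), PD-L1high library 3 (0.0937) or PD-L1high library 4 (0.0690). Between PD-L1high and PD-L1low cells the log2 fold change was 0.55 (95% interval 0.25 to 0.84), which did not pass (edgeR adjusted p = 0.128) and passed without PD-L1low library 2 (edgeR adjusted p = 0.0232). Whether reads were counted by strand is not given in the sources used here, so a part of the reads of Chrnb2 in the Adar value was not tested.

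Mavs, the adaptor that RIG-I and MDA5 signal through, was not called in any comparison. It had 18.2, 21.1, 20.4 and 19.8 CPM in PD-L1high libraries 1 to 4, against 21.1, 18.9 and 19.2 CPM in PD-L1low libraries 2 to 4 and 12.5, 21.5, 17.3 and 15.8 CPM in control libraries 1 to 4. All groups overlapped, and control library 1, which was the highest control in CPM for the 6 called sensors, was the lowest for Mavs. The log2 fold change of Mavs was 0.27 for PD-L1high versus control (95% interval -0.06 to 0.59, edgeR adjusted p = 0.737) and 0.10 for PD-L1high versus PD-L1low (95% interval -0.26 to 0.46, edgeR adjusted p = 0.919). The upper bounds of both intervals lie below the fitted changes of Ddx58, Ifih1, Dhx58, Eif2ak2 and Zbp1 in the same comparisons, and no test of the difference between genes was made.

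The DNA-sensing pair was near the limit of detection. Tmem173, the gene of STING, spans chr18:35733679-35740554 on the minus strand. It had 0, 1, 0 and 0 counts in PD-L1high libraries 1 to 4, against 0, 0 and 10 counts in PD-L1low libraries 2 to 4 and 1, 2, 0 and 8 counts in control libraries 1 to 4. Mb21d1, the gene of cGAS, had 1, 3, 3 and 8 counts in PD-L1high libraries 1 to 4, against 2, 3 and 0 counts in PD-L1low libraries 2 to 4 and 8, 1, 3 and 6 counts in control libraries 1 to 4. The groups overlapped for both genes, neither was tested, and no difference was detectable at this depth. No library was above 1 CPM for either gene, whereas Mavs, the adaptor of the RNA branch, had at least 12.5 CPM in every library.

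Between PD-L1low and control cells, no sensor passed the threshold. For PD-L1low versus control, the log2 fold change was 0.34 for Ddx58 (95% interval 0.03 to 0.65), 0.41 for Ifih1 (0.09 to 0.72), 0.21 for Dhx58 (-0.52 to 0.95), 0.32 for Eif2ak2 (0.02 to 0.61), 0.10 for Adar (-0.19 to 0.40) and 0.17 for Mavs (-0.19 to 0.53), each with an edgeR adjusted p of 1.00. At an unadjusted p under 0.05, edgeR placed 4 of the 7 (Ddx58, Ifih1, Zbp1 and Eif2ak2) higher in PD-L1low cells, against 0.991% of all tested genes. At an adjusted p under 0.05, edgeR, DESeq2 and limma-voom with the same terms each called 0 of the 7. No sensor had every PD-L1low library above every control library, as 1.28% of tested genes did. Within the 3 replicate numbers that have both groups, Ddx58 (log2 ratios 0.008 to 0.61), Ifih1 (0.28 to 0.79) and Eif2ak2 (0.33 to 0.46) were higher in PD-L1low in 3 of 3, and control library 1 has no PD-L1low library of its number.

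**Figure D2:**
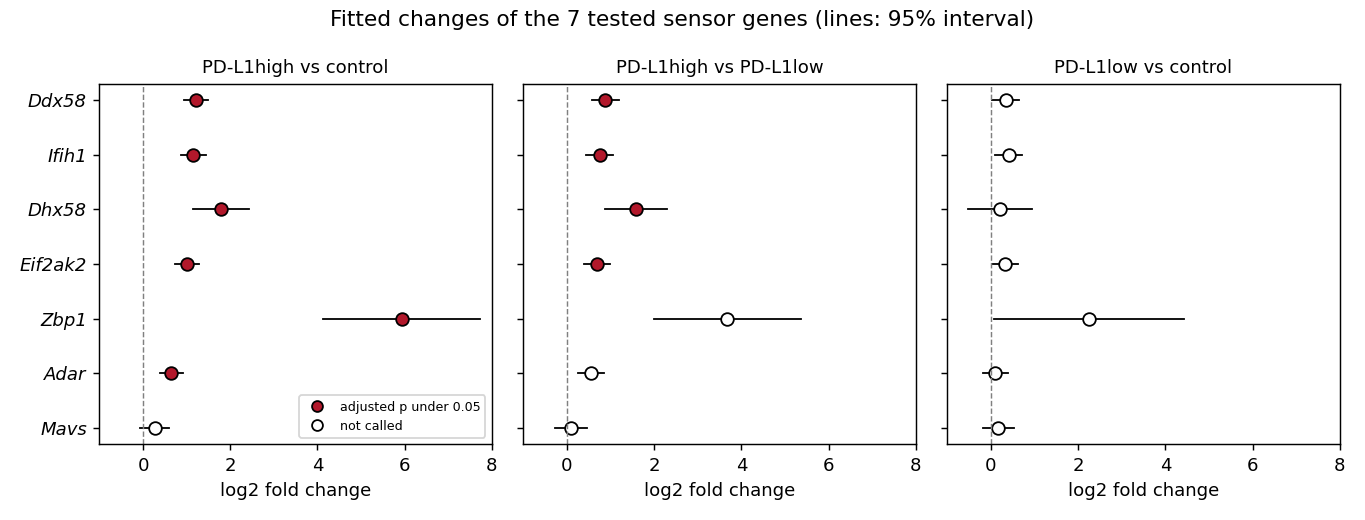
Log2 fold changes of the 7 tested sensor genes from the edgeR fit in the 3 comparisons, with lines for 95% intervals and filled points for an adjusted p under 0.05. In all, 6 genes are filled for PD-L1high versus control and 4 for PD-L1high versus PD-L1low, none is filled for PD-L1low versus control, and Zbp1 has the largest values and the widest intervals.

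Individual libraries stood out for several sensors at once. In CPM, control library 1 was the highest control for all 6 called sensors. In TPM it was the lowest control for Adar (13.7 TPM, against 14.2 to 16.9 in the others) and was below control library 3 for Ifih1 (9.92 and 11.8 TPM). Control library 1 also had the highest share of mitochondrial counts, 13.3%, where all libraries spanned 5.54% to 13.3%. PD-L1high library 4 was the lowest of its group in CPM for 5 of these 6 genes, and had the smallest total of all libraries. PD-L1low library 4 was the lowest of its group in CPM for 4 of the 6. The number of sensors called for PD-L1high versus control was 6 without control library 1 and 5 without PD-L1high library 4. For PD-L1high versus PD-L1low, leaving out single libraries gave 0 to 5 sensors: 0 without PD-L1high library 2 or 3, 1 without PD-L1high library 4 or PD-L1low library 3 or 4, and 2 without PD-L1low library 2 or control library 4. The part of mitochondrial share or depth in these values was not tested.

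Per transcript length, in the deposited TPM (transcript counts scaled by length and library), the order of the sensors differed between the groups. In PD-L1high cells the mean was 34.9 TPM for Ddx58, 27.2 for Eif2ak2, 25.4 for Adar, 21.5 for Ifih1, 17.3 for Zbp1, 9.73 for Dhx58 and 7.46 for Mavs, each neighbour overlapping the next in its libraries. Mb21d1 at 0.085 TPM and Tmem173 at 0.02 TPM followed, apart from Mavs. In PD-L1low cells the mean was 18.3 TPM for Ddx58, 17.8 for Adar, 15.5 for Eif2ak2, 11.9 for Ifih1, 7.01 for Mavs, 3.86 for Dhx58 and 0.79 for Zbp1, with no overlap between neighbours from Eif2ak2 down to Zbp1. In control cells it was 14.8 TPM for Adar, 14.5 for Eif2ak2, 14.4 for Ddx58, 9.42 for Ifih1, 6.09 for Mavs, 2.46 for Dhx58, 0.62 for Tmem173 and 0.35 for Zbp1. Control libraries of Adar, Eif2ak2, Ddx58 and Ifih1 overlapped from neighbour to neighbour, and those of Mavs and Dhx58 did not. By mean TPM, Zbp1 was the fifth of the 9 genes in PD-L1high, the seventh in PD-L1low and the eighth in control cells, where its libraries overlapped those of Tmem173. The control mean of Tmem173 came mostly from library 4, at 2.36 TPM, where the other control libraries had 0.05, 0.08 and 0 TPM. By the median, control cells had 0.225 TPM of Zbp1 and 0.065 TPM of Tmem173, the reverse of the order by mean. Untreated beta cells thus already held transcripts of Adar, Eif2ak2, Ddx58, Ifih1, Mavs and Dhx58 in every library.

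**Figure D3:**
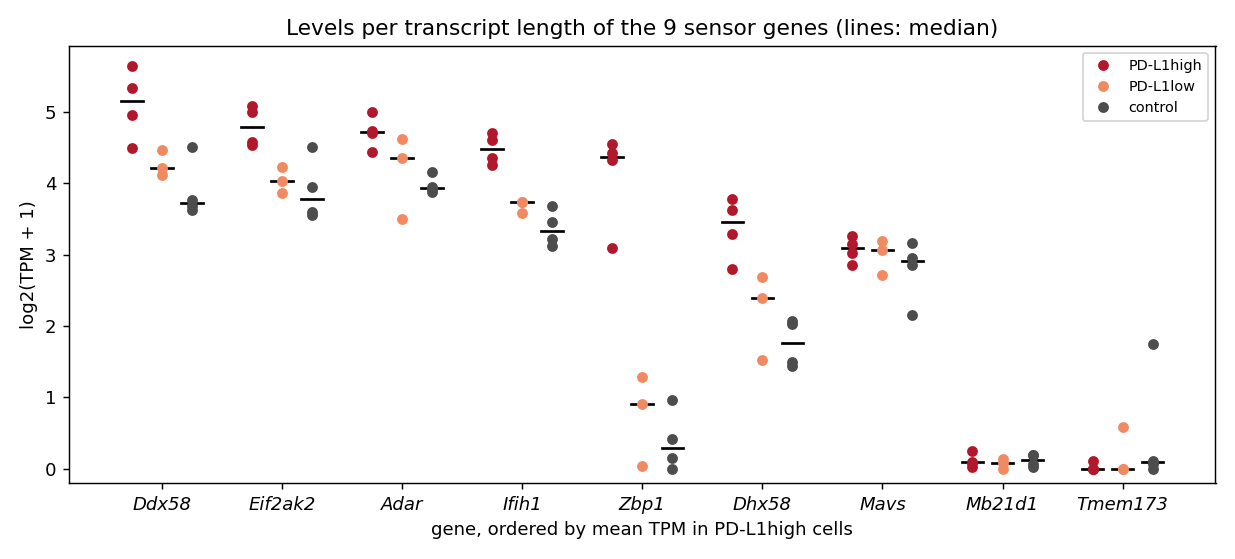
Levels per transcript length of the 9 sensor genes as log2(TPM + 1), with genes ordered by mean TPM in PD-L1high cells. Points are libraries of PD-L1high, PD-L1low and control cells from left to right within each gene, and lines are group medians. Zbp1 separates the PD-L1high libraries from the rest more widely than the other genes do, and Mb21d1 and Tmem173 lie near 0 in nearly all libraries.

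To describe which genes had a pattern like each called sensor, log2 CPM values over the 11 libraries were centred and compared by the root mean square (RMS) difference, where 0 is an identical pattern. Among the sensors themselves, Ifih1 and Eif2ak2 were closest (RMS 0.127), and Zbp1 was far from all others (RMS 1.69 to 2.59), with a larger range over the libraries. The genes nearest to Ddx58 were Trafd1 (0.164), Samd9l (0.215) and Dtx3l (0.239). Ifih1 was nearest to Samhd1 (0.149), Trafd1 (0.153) and Idnk (0.185), and Eif2ak2 to Trafd1 (0.147), Samhd1 (0.156) and B3gnt3 (0.17). Dhx58 was nearest to Irf7 (0.314), Ddx60 (0.32) and Oas1a (0.359). Adar was nearest to Znfx1 (0.143), B3gnt3 (0.149) and Sgsm2 (0.158), and Zbp1 to Gm4951 (0.583), H2-Q6 (0.869) and Gbp3 (0.883). The points share libraries and depth, and no test was made on these distances.

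The other genes of nucleic acid sensing were counted from 7 lists by role and a list of type I and III interferon genes. Of the 74 genes of the 7 lists, 61 passed the filter. For PD-L1high versus control, 4 were called higher and none lower, with a median log2 fold change of 0.17. For PD-L1high versus PD-L1low, 3 were higher and none lower (median 0.08), and for PD-L1low versus control none was called in either direction (median 0.04). Over all tested genes, 0.941%, 0.640% and 0.0615% were called higher in these comparisons in this order, with medians of -0.02, -0.0042 and 0.00037. Read against the last share, no called gene among 61 for PD-L1low versus control is not a result about them.

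Irf7, a transcription factor that drives interferon genes below the adaptors, had 41.7, 43.2, 42.1 and 32.7 CPM in PD-L1high libraries 1 to 4, against 11.3, 9.84 and 4.63 CPM in PD-L1low libraries 2 to 4 and 24.1, 10.1, 8.94 and 8.33 CPM in control libraries 1 to 4. It was higher in PD-L1high than in control cells (log2 fold change 1.76, edgeR adjusted p = 0.000747) and than in PD-L1low cells (log2 fold change 2.10, edgeR adjusted p = 0.000804). As for the called sensors, control library 1 was the highest control in CPM. Irf3, its constitutive relative, had log2 fold changes of -0.17 in both comparisons and Tbk1, the kinase that activates both factors, had 0.28 and 0.27, none of them called (edgeR adjusted p = 0.881, 0.889, 0.658 and 0.673). Ikbkg, which encodes the NF-κB regulator NEMO, was higher in PD-L1high than in PD-L1low cells (log2 fold change 0.75, edgeR adjusted p = 0.00240) and was not called against control (0.42, edgeR adjusted p = 0.0709). Ikbkg had 58.4 ± 4.90 CPM in PD-L1low (n = 3) and 76.2 ± 9.13 CPM in control cells (n = 4, SD), with a log2 fold change of -0.33 that was not called (edgeR adjusted p = 1.00). Every PD-L1low library of Ikbkg was below every control library, narrowly, at 63.18 CPM in PD-L1low library 2 and 63.95 CPM in control library 3. The share of all tested genes with that pattern was not counted. Chuk, the most abundant of the 8 tested genes of this step, was not called in any comparison.

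Mlkl, the executor of necroptosis below ZBP1 and RIPK3, had 14.6, 14.3, 11.5 and 12.1 CPM in PD-L1high libraries 1 to 4, against 5.13, 3.99 and 2.81 CPM in PD-L1low libraries 2 to 4 and 3.10, 2.70, 2.42 and 2.78 CPM in control libraries 1 to 4. It was 4.74-fold higher in PD-L1high than in control cells (edgeR adjusted p = 0.000114) and 3.20-fold higher than in PD-L1low cells (edgeR adjusted p = 0.00726). Ripk3, the kinase between ZBP1 and MLKL, had 0 counts in all 11 libraries, while Ripk1 (log2 fold change 0.33, edgeR adjusted p = 0.484) and Casp8 (0.26, edgeR adjusted p = 0.832) were not called for PD-L1high versus control. Over a group, a count of 0 allows up to 3 counts, or 0.0592 CPM in PD-L1high, 0.0753 CPM in PD-L1low and 0.0561 CPM in control cells, for counting error only. Zbp1 and Mlkl were both higher in PD-L1high than in control beta cells, and the kinase known to join them was not detected.

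Samhd1, a dNTP hydrolase of the clearance and editing list, was 1.88-fold higher in PD-L1high than in control cells (41.3 ± 6.66 CPM and 22.0 ± 4.00 CPM, SD, n = 4 each, edgeR adjusted p = 0.00448), and was not called against PD-L1low cells (log2 fold change 0.67, edgeR adjusted p = 0.125). It was the only called gene of the 9 in that list. Adarb1, another editing enzyme and the most abundant gene of the list, had a log2 fold change of -0.16 for PD-L1high versus control (edgeR adjusted p = 0.768), beside 0.65 for Adar. Unc93b1, which carries endosomal Toll-like receptors to their compartment, was 1.68-fold higher in PD-L1high than in control cells (23.6 ± 4.63 CPM and 14.0 ± 1.84 CPM, SD, n = 4 each, edgeR adjusted p = 0.0361). Tlr3, the endosomal sensor of double-stranded RNA, had a log2 fold change of 0.51 and was not called (edgeR adjusted p = 0.161).

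The remaining lists held no called gene in any comparison. These were the 13 tested partners of RNA sensing, led in abundance by Pcbp2, the 11 tested genes of the PKR branch, led by Dnajc3, and the 11 tested of 16 genes of other cytosolic DNA sensing, led by Dhx9. At an unadjusted p under 0.05, edgeR placed 5, 1 and 1 genes of these lists higher and none lower in PD-L1high versus control, where 7.65% of all tested genes differed in either direction at that p. Read against the 0.941% of all tested genes called higher, no called gene in lists of this size is not a result about them. Aim2, the inflammasome sensor of DNA, had 0 counts in every library. Ifi203, of the same list, had 7 to 30 counts in PD-L1high, 0 to 1 in PD-L1low and 0 to 3 in control libraries. Ifi204 (0 to 7, 0 to 3 and 0 counts in the same order), Mndal (0 to 10, 0 to 4 and 0 to 3) and Enpp1 (0 to 13, 3 to 21 and 0 to 10) overlapped between the groups. None of these genes passed the filter, so none was tested. The 19 type I and III interferon genes were not tested, and 17 of them had 0 counts everywhere. Their summed counts were 3 over the PD-L1high, 0 over the PD-L1low and 7 over the control libraries, from Ifnk and Ifnl3.

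**Figure D4:**
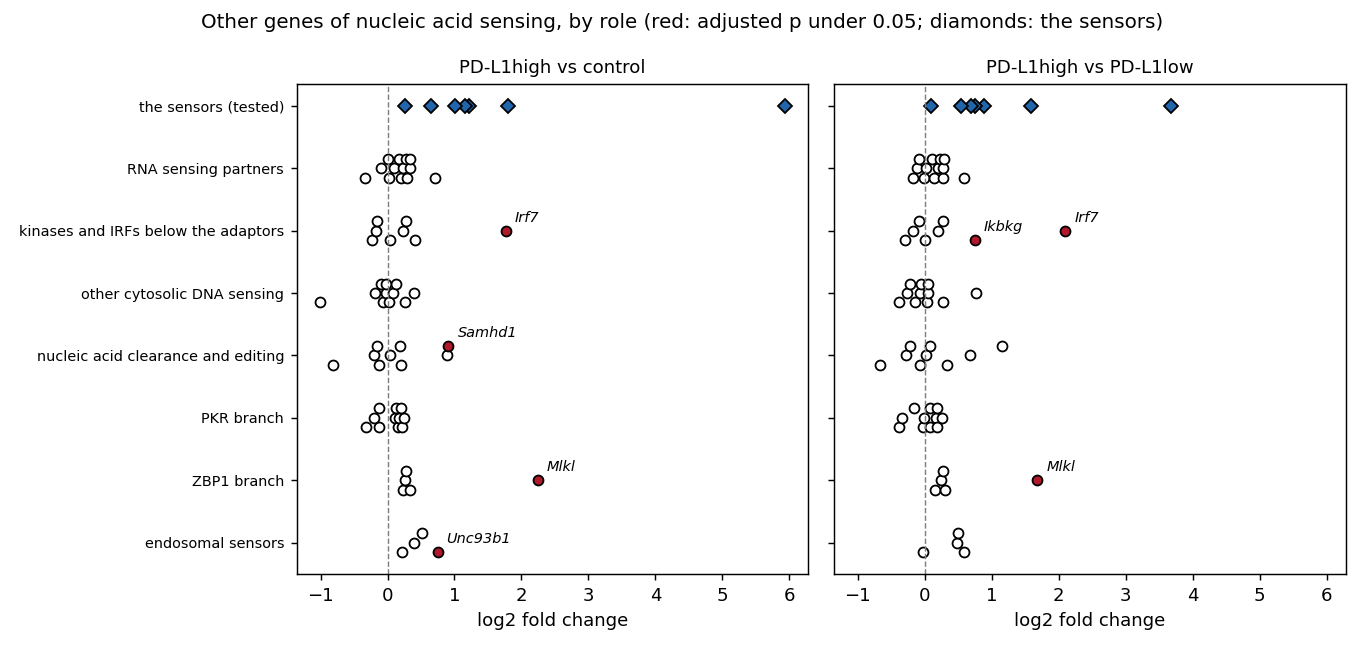
Log2 fold changes of tested genes of nucleic acid sensing, in rows by role, for PD-L1high versus control and PD-L1high versus PD-L1low on the same axis. Circles are genes, filled and named where the edgeR adjusted p was under 0.05, and diamonds are the 7 tested sensors. The named genes are 4 against control and 3 against PD-L1low, while most of the 61 genes lie near 0.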

How the data were processed

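RNA-seq of 11 bulk libraries of sorted mouse beta cells was used, grouped by the sample labels, with dose, time and gates from the methods. The authors made strand-specific libraries from random primers, mapped reads with STAR 2.5.2b to GRCm38.p6 (GenCode M23) and quantified genes with RSEM, whose version and strand setting are not given in the sources used here. Use of molecular identifiers is likewise not given, so intervals and floors cover counting error only. The deposited expected counts per gene are estimated and not normalized. The deposited TPM values are scaled by the authors to transcript length and library. DESeq2 1.32.0 was used by the authors with a batch term.

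Expected counts were rounded to whole numbers (a change of at most 0.000388% of a total). Library totals were 10422018 to 15810769. No pair of same-group libraries was as alike as counting noise alone would make it. Genes were kept by filterByExpr (minimum count 10) and tested with edgeR 4.0.16 (TMM, robust quasi-likelihood fit, R 4.3.3) on group and replicate number, used in place of the batch term that the methods do not define. The SE is the absolute log2 fold change over the square root of F. Adjusted p used Benjamini-Hochberg over 16252 genes, threshold 0.05. All 9 sensors are named. From each pathway list, the named genes are those called in any comparison (at most 4 per list and comparison) or else the most abundant, with the 3 nearest genes of each called sensor (prior count 2) and the IFNγ check list, of which 1 gene is not reported here. Other pathway genes named for contrast (Irf3, Tbk1, Ripk1, Ripk3, Casp8, Aim2, Ifi203, Ifi204, Mndal, Enpp1, Tlr3, Adarb1, Ifnk and Ifnl3) were chosen after their values were seen. The members and lists were chosen with earlier results of these data known. Positions are from GENCODE M21 on GRCm38 and promoter windows from RefSeq. Alternatives were 22 settings: no replicate term, other normalizations, filters and tools (DESeq2 1.42.0, limma 3.58.1), log2(TPM + 1), fewer groups, and leaving out libraries.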

Additional observations from a re-analysis of the deposited data

Results flagged for a closer look

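Among the 18 groups of 4 libraries in which single values were compared with their group, 3 values stood apart by Dixon's test, which chance alone does in about 5% of groups. Dhx58 had 9.15 CPM in control library 1, against 2.77 to 3.62 CPM in the other controls. Eif2ak2 had 62.3 CPM in control library 1, against 41.1 to 44.3 CPM in the other controls. Tmem173 had 0.0795 CPM in PD-L1high library 2, which is 1 count, against 0 in the other PD-L1high libraries. A group with only 1 library above 0 is always flagged, so the 5% does not apply to this Tmem173 value. Without control library 1, Dhx58 and Eif2ak2 were still called higher in PD-L1high than in control cells.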

How the results depend on the processing

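Of 462 fits of the sensors' fold changes under 22 alternatives, 407 kept their direction and side of the threshold, 37 lost a call, 13 gained one and 5 changed sign. Ddx58, Ifih1 and Zbp1 were called for PD-L1high versus control under all 22. The other losses for PD-L1high versus control beside those of single libraries were Dhx58 with no replicate block (adjusted p = 0.0603) and Eif2ak2 (0.0963) and Adar (0.390) under limma on log2(TPM + 1). The sign changes were all uncalled PD-L1low versus control values: Dhx58 at -0.044 with no replicate block, -0.048 with DESeq2 on group alone, and -0.14 (without control library 2) to 0.45 when single libraries were left out, below 0 also without PD-L1low library 2 (-0.0099), and Adar at -0.092 (without PD-L1low library 2) to 0.26.

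The sensors called for PD-L1high versus control numbered 6 in the reported fit and 4 to 6 when single libraries were left out. For PD-L1low versus control, 1 (Zbp1) was called with no filter on low counts, against 0 in the reported fit and 0 without any single library. For PD-L1high versus PD-L1low, 4 were called in the reported fit, 2 with no replicate block, and 0 to 5 when single libraries were left out. With no replicate block, Ddx58 (edgeR adjusted p = 0.0703) and Dhx58 (0.127) lost their call. Dhx58 also lost it with upper quartile normalization (edgeR adjusted p = 0.0614). Limma on log2(TPM + 1) called 1, Zbp1 (adjusted p = 0.000957), which the reported fit did not call. Under that setting Ddx58 (adjusted p = 0.559), Ifih1 (0.437), Dhx58 (0.514) and Eif2ak2 (0.746) all lost their call.

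Over all genes, 161 were called for PD-L1high versus control, 328 with no filter, 249 with DESeq2 on both terms, 245 with limma-voom, and 110 to 269 without single libraries. For PD-L1low versus control, 13 were called, 91 with no filter, 47 with DESeq2 on both terms, 22 with DESeq2 on group alone, 27 with limma-voom, 33 with only those groups, and 8 to 43 without single libraries, the highest without control library 1. For PD-L1high versus PD-L1low, 119 were called, 354 with no filter, 203 with DESeq2 on both terms, 180 with limma-voom, 75 on log2(TPM + 1), and 64 to 143 without single libraries. The libraries whose removal moved a count by more than 1.5 times were control library 2 for PD-L1high versus control (269), control library 1 (43), PD-L1high library 1 (41) and PD-L1low library 2 (8) for PD-L1low versus control, and, for PD-L1high versus PD-L1low, PD-L1high library 2 (76) or 3 (64) and PD-L1low library 2 (77), 3 (78) or 4 (78). Replicate 1 held only control library 1 and PD-L1high library 1, and replicate number was in the fit. Leaving out either left the other to its own replicate term, so both are in effect the fit without replicate 1 (43 for PD-L1low versus control). The causes of these changes were not tested.

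Libraries with the same replicate number did not deviate together throughout (r = -0.329 to 0.408 over 10 pairs, 6 of them over 0.1), so the numbers were not shown to pair the samples. Tmem173 and Mb21d1 did not pass the filter on low counts, and no fold change of theirs is reported.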
